A study of Mus musculus with 15 samples.

Results

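The genes of the proteasome, its regulatory caps and its assembly chaperones were followed across 5 groups of B16.F10 cells, a mouse melanoma line that grows as a monolayer. Members were all listed genes whose symbol begins with Psm, a letter from a to g and a digit, leaving out Psmc3ip, a meiotic recombination factor that only shares the prefix. The rule found 46 of the 13172 listed genes. They are 16 core particle genes (8 alpha and 8 beta), 25 regulatory genes (6 ATPases, 14 non-ATPase genes and 5 activator genes), the inhibitor gene Psmf1 and 4 assembly chaperone genes. Classes follow the letters of the symbol. The activator genes thus include Psme3ip1, whose product binds that of Psme3, and the non-ATPase genes include the base chaperones Psmd5 and Psmd10. Every culture was kept in 1% oxygen, controls included, so no group shows these genes at normal oxygen. Each group had 3 libraries. Control received neither siRNA nor drug, NC_siRNA a negative control siRNA, Hif1a_siRNA the siRNA to Hif1a, Dox doxorubicin without any siRNA, and Hif1a_siRNA_Dox the Hif1a siRNA followed by the drug. By genotype the labels call the 2 groups given the Hif1a siRNA Hif-1a knockdown and the other 3 wild type. The siRNAs were given as lipoplexes at 25 nM, and doxorubicin, an anthracycline that traps topoisomerase II on DNA, was added 24 h later at 0.25 µM for 24 h. No group received the negative control siRNA together with doxorubicin, and for the groups without the drug the hours between siRNA and harvest are not given in the sources used here. Replicates are named biological in the labels, but separate cultures are not mentioned, and the p-values therefore measure only the spread between these samples, which may be technical.

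The proteasome is the protease that degrades ubiquitin-tagged proteins in the cytosol and nucleus. Its core particle is a barrel of stacked alpha and beta rings, with the protease sites on the inner face of the beta rings and a gate formed by the alpha rings. The regulatory particle sits on the barrel's ends: a base with a ring of ATPases unfolds substrates and threads them through the gate, and a lid removes the ubiquitin chain. Other caps (the products of Psme1 and Psme2, of Psme3 and of Psme4) open the gate without ATP. Because subunits are built into a complex of fixed proportions, their genes are known to be induced together when proteasome activity drops, through the transcription factor encoded by Nfe2l1.

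Each library held between 23825110 and 28734303 counted reads. Hif1a was lowest in both groups given its siRNA, with 17.2 ± 1.6 CPM in Hif1a_siRNA and 13.1 ± 1.4 in Hif1a_siRNA_Dox against 142 ± 8.9 in Dox, 217 ± 13 in Control and 274 ± 14 in NC_siRNA (mean ± SD, n = 3), where CPM is a gene's read count relative to the TMM-scaled library total. All 7 melanocyte markers were listed, and their summed level was highest with the drug, at 39692 to 46325 CPM in Dox and 29682 to 36513 in Hif1a_siRNA_Dox, against 13419 to 14554 for Control, 8288 to 8956 for NC_siRNA and 8997 to 9408 for Hif1a_siRNA. None of the 6 leukocyte, 4 endothelial and 4 epithelial markers was listed. Of 5 fibroblast markers 2 (Col1a1 and Pdgfra) were listed, at a summed 2.49 to 6.62 CPM without the drug and 37.2 to 85.7 CPM with it. The share of reads from mitochondrially encoded genes averaged 1.43% to 1.91% over the 3 groups without the drug, 3.77% in Dox and 4.62% in Hif1a_siRNA_Dox. The part of these shifts in the proteasome results was not tested, other than by leaving out the mitochondrial genes. In bulk libraries a lower level in each cell and fewer cells with the transcript cannot be told apart.

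Of the 46 members, 45 were listed for all 5 groups and were tested in a fit over 12721 genes. The exception was the pseudogene Psma5-ps (chromosome 10, 85313469 to 85314438), listed for 4 groups with 6 to 16 reads a library, and not passing the test in any of 3 comparisons (edgeR adjusted p = 0.498, 0.792 and 0.608). All tested members had a mean of at least 5 CPM in some group. The immunoproteasome genes Psmb8 and Psmb9 are not analysed here. Some counts are uncertain because the annotated gene overlaps another listed gene and the strand setting of the counting is not given: Psme4 shares 18357 bases with Erlec1, Psma3 shares 4263 with the long noncoding RNA 3110056K07Rik, and Psmd10 shares 2867 with Atg4a. Reads of Psmb7 and Psmd13 may be split with the pseudogenes Gm13586 and Gm15542.

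Summed over the members, proteasome transcripts were most abundant in untreated cells. The sum was 7276 ± 185 CPM in Control, followed by Dox (5686 ± 82) and Hif1a_siRNA (5627 ± 89), which did not differ beyond their spread, and then by Hif1a_siRNA_Dox (4978 ± 251) and NC_siRNA (4939 ± 48), which did not either (mean ± SD, n = 3). Every treated group therefore lay at 67.9% to 78.2% of Control. Psmd8, a lid subunit (chromosome 7, 29174187 to 29180673), alone gave 15.9% of the sum in Control and 5.50% in Hif1a_siRNA_Dox. Per kilobase of exon it was the highest member in Control (526 ± 17 CPM per kb), ahead of the base scaffold gene Psmd2 (209 ± 3.4) and the catalytic gene Psmb7 (203 ± 6.9). That order changed with the drug: in Dox, Psmd2 led at 322 ± 15 CPM per kb, followed by the beta ring gene Psmb3 at 278 ± 14 and Psmd8 at 250 ± 8.0. In Hif1a_siRNA_Dox the first 3 were Psmb3 (284 ± 15 CPM per kb), Psmd2 (269 ± 26) and the ATPase gene Psmc5 (213 ± 9.4), of which Psmb3 and Psmd2 did not differ beyond their spread. The like sums of Dox and Hif1a_siRNA depended on the highest genes. Without Psmd2 and Psmd8 the sum was 4181 ± 97 CPM in Dox and 4566 ± 99 in Hif1a_siRNA, with no overlap.

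**Figure D1:**
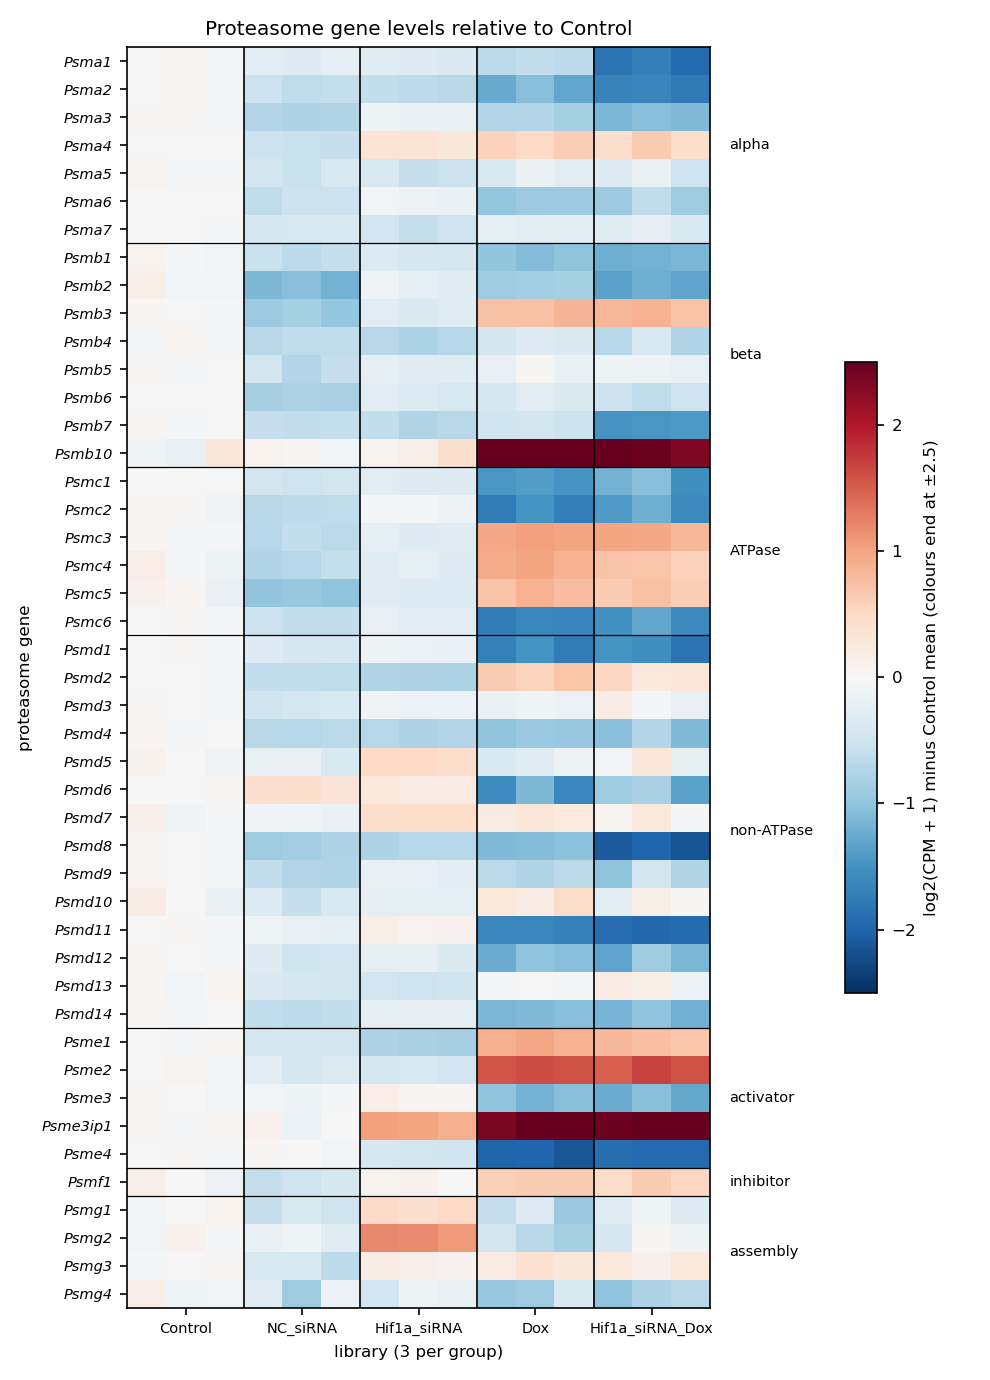
Level of the 45 tested proteasome genes in each of the 15 libraries (columns, 3 per group), as log2(CPM + 1) minus the mean of the Control libraries, with colours ending at 2.5 in either direction and genes ordered by class. Most rows are pale blue in NC_siRNA, and in the drug groups blue and red rows stand side by side within the ATPase, beta and activator classes.

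Most members fell with transfection alone. In NC_siRNA against Control, 36 of 45 members fell and 1 rose, where 33.7% of all tested genes fell and 33.1% rose (edgeR quasi-likelihood test, Benjamini-Hochberg adjusted p under 0.05 over all 12721 genes). The median log2 fold change of the members was −0.54, beside −0.01 for all genes. By class, 14 of 15 core genes, all 6 ATPase genes, 11 of 14 non-ATPase genes, 2 of 5 activator genes, Psmf1 and 2 of 4 assembly genes fell. Library values of 39 members lay wholly below Control and those of 1 wholly above, where the groups of 72.7% of all genes did not overlap.

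Psmb2, a beta subunit without a catalytic site, fell furthest. It was at 81.7, 70.7 and 70.4 CPM in Control and at 33.4, 34.7 and 32.2 CPM in NC_siRNA. The groups were far apart, with every NC_siRNA library below 35 CPM, and the log2 fold change was −1.15 ± 0.08 SE (edgeR adjusted p = 4.1e-11). Psmc5, an ATPase of the base, stood at 192, 182 and 158 CPM in Control and 88.7, 90.9 and 87.3 in NC_siRNA, a log2 fold change of −1.0 ± 0.07. Next came Psmb3 (−0.91 ± 0.07), Psmd8 (−0.84 ± 0.06), Psmb6, the caspase-like catalytic subunit (−0.82 ± 0.06), and the alpha subunit Psma3 (−0.76 ± 0.06). The other catalytic subunits also fell: Psmb5, the chymotrypsin-like one (−0.59 ± 0.08) and Psmb7, the trypsin-like one (−0.60 ± 0.06).

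The exceptions were few. Psmd6, a lid subunit, was the only member that rose, from 24.5, 24.4 and 25.3 CPM in Control to 33.4, 33.8 and 31.2 in NC_siRNA (log2 fold change 0.41 ± 0.13, edgeR adjusted p = 0.0075). Its 2 groups did not overlap. The immunoproteasome gene Psmb10 (log2 fold change 0.00 ± 0.23), Psme3 (−0.08 ± 0.07), its partner Psme3ip1 (−0.02 ± 0.08) and Psme4 (−0.01 ± 0.06) did not pass the test. Of the activator genes only Psme1 (−0.45 ± 0.07) and Psme2 (−0.37 ± 0.08) fell.

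More members rose than fell with the Hif1a siRNA, and most of the means stayed below those of untreated cells. Against NC_siRNA, 26 of 45 members rose and 4 fell, where 36.4% of all genes rose and 31.2% fell. The median log2 fold change of the members was 0.31, beside 0.06 for all genes. This comparison shares its NC_siRNA libraries with the one above, so a low value there enters both. The mean in NC_siRNA was below both other groups for 31 of 45 members. For 21 members the Hif1a_siRNA mean lay between NC_siRNA and Control, for 12 it lay above Control, and for the rest at or below NC_siRNA. Library values did not overlap for 37 members, 30 of them higher, beside 77.3% of all genes.

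**Figure D2:**
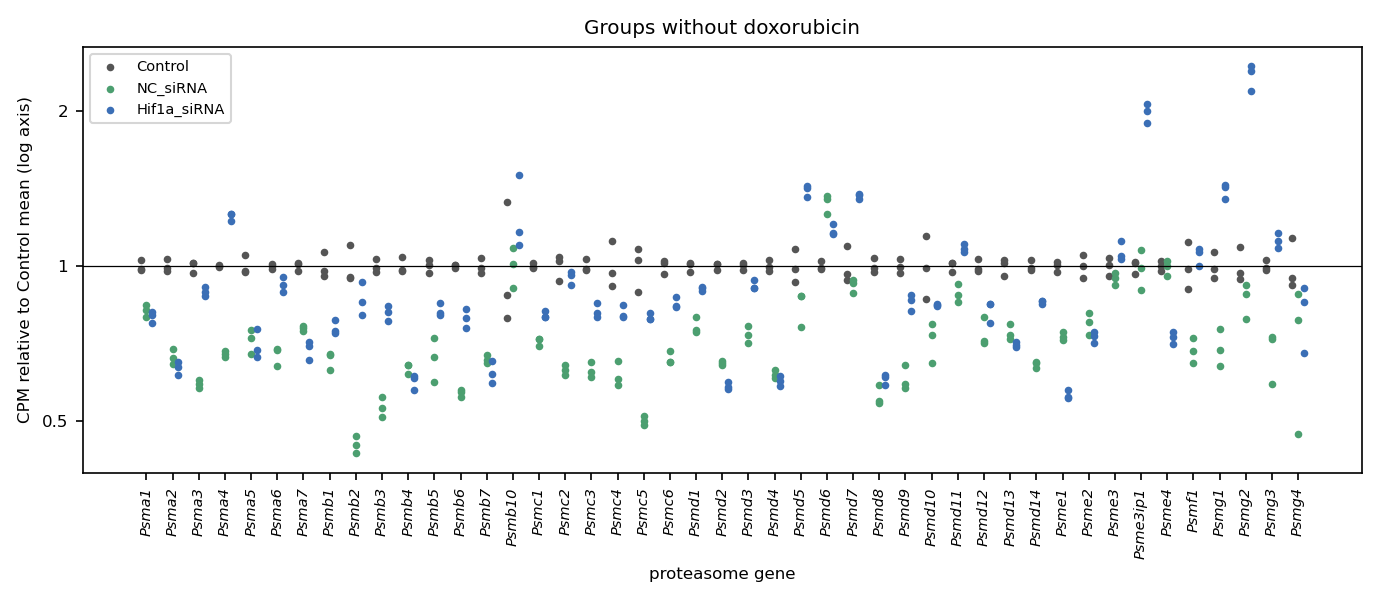
CPM of each tested member in the 9 libraries without doxorubicin, divided by its Control mean (log axis), with 1 point per library. Green NC_siRNA points lie below the line at 1 for nearly all genes, and the blue Hif1a_siRNA points of Psmg2, Psme3ip1, Psmg1, Psmd5, Psmd7 and Psma4 lie above all Control points.

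The assembly chaperones showed the largest increases. The products of Psmg1 and Psmg2 pair up to build the alpha ring. Psmg2 was at 9.18, 10.6 and 9.43 CPM in Control, 8.60, 8.94 and 7.70 in NC_siRNA and 23.7, 23.2 and 21.2 in Hif1a_siRNA. Every Hif1a_siRNA library stood far above all libraries of the other 2 groups, with a log2 fold change against NC_siRNA of 1.43 ± 0.14 (edgeR adjusted p = 2.2e-09). Psmg1 was at 8.35, 9.82 and 8.96 CPM in NC_siRNA and 18.6, 17.6 and 18.7 in Hif1a_siRNA (1.02 ± 0.14, edgeR adjusted p = 5.8e-07), and it too lay above all Control libraries, which held 12.3 to 13.9 CPM. Psmg3 rose by 0.72 ± 0.13, while Psmg4 had a value of 0.19 ± 0.21 and did not pass the test. Psmd5, a chaperone of the base, rose by 0.75 ± 0.11.

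Psme3ip1, whose product binds the nuclear cap made by Psme3, stood at 34.8, 29.0 and 32.0 CPM in NC_siRNA and 66.8, 64.7 and 61.2 in Hif1a_siRNA (log2 fold change 1.01 ± 0.08, edgeR adjusted p = 1.2e-10). Its Control libraries, at 31.2 to 32.9 CPM, overlapped with NC_siRNA, and every Hif1a_siRNA library lay above both groups. In the core particle, Psmb2 (0.94 ± 0.08) and the alpha subunit Psma4 (0.89 ± 0.07) rose most. Psma4 went from 61.6, 61.0 and 60.1 CPM in NC_siRNA to 114, 114 and 110, above the 89.7 to 90.4 CPM of Control. Psmb2, at 69.1, 63.3 and 59.7 CPM with the Hif1a siRNA, did not exceed the Control libraries. Catalytic genes Psmb5 (0.31 ± 0.08) and Psmb6 (0.48 ± 0.06) rose, and Psmb7 (−0.09 ± 0.06) and Psmb10 (0.33 ± 0.21) did not pass the test, although Psmb7 passed with DESeq2 (−0.13) and in the fit of the compared groups alone (−0.14).

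Among the members that fell, Psme4 and Psme1 moved most. Psme4, whose product caps core particles in the nucleus, was level in Control (295, 301 and 289 CPM) and NC_siRNA (301, 295 and 282 CPM) and lower in Hif1a_siRNA (219, 214 and 208 CPM). Its log2 fold change was −0.45 ± 0.06 (edgeR adjusted p = 4.8e-07), and no library of the knockdown overlapped with the others. Psme1, an interferon-inducible cap subunit, was at 31.0, 31.7 and 30.6 CPM in NC_siRNA and 24.4, 23.7 and 23.7 in Hif1a_siRNA (−0.38 ± 0.07), after already falling with transfection. Its partner Psme2 did not pass the test (−0.09 ± 0.08), and Psme3 rose slightly (0.17 ± 0.07, edgeR adjusted p = 0.032), a call lost with RLE or upper-quartile scaling, with DESeq2 and without replicate 1 or 2 of either group. The other 2 decreases were small: Psmd2 (−0.15 ± 0.06) and Psma7 (−0.14 ± 0.06). Psmd2 lost its call without any single library of the 2 groups. Psma7 kept its call only without Control replicate 1, Hif1a_siRNA replicate 1 or any one library of Hif1a_siRNA_Dox, and lost it in the other 10 fits that left out a library and with a replicate block (adjusted p = 0.058). The count of members that fell was therefore 2 without any library of NC_siRNA or without replicate 2 or 3 of Hif1a_siRNA, and 10 in a fit of the compared groups alone.

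With doxorubicin more members fell than rose. In Dox against Control, 28 of 45 members fell and 14 rose, where 39.8% of all genes fell and 43.9% rose. The median log2 fold change of the members was −0.50, beside 0.10 for all genes. At least 2-fold decreases were found for 13 members and increases for 3, beside 24.5% and 26.8% of all genes. Library values did not overlap for 42 members, beside 84.9% of all genes. The drug given after the Hif1a siRNA gave a like split in a separate set of libraries: 26 members fell and 13 rose, beside 41.6% and 42.6% of all genes, with a median of −0.47 beside 0.04, and 39 members did not overlap, beside 85.2% of all genes. In both settings 25 members fell, 11 rose, and 2 (Psma7 and Psmd7) were called in opposite directions. Leaving out the mitochondrial genes, whose share of reads rose with the drug, gave 29 lower and 13 higher without the siRNA and 26 lower and 13 higher after it.

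Members of the ATPase ring, whose 6 products stand side by side in each ring, went opposite ways. Psmc1 was at 276, 280 and 274 CPM in Control and 99.8, 104 and 99.4 in Dox (log2 fold change −1.45 ± 0.08, edgeR adjusted p = 8.5e-14). Psmc2 was at 153, 150 and 138 CPM in Control and 42.8, 51.2 and 44.2 in Dox (−1.67 ± 0.09). Psmc6 was at 229, 231 and 218 CPM in Control and 66.6, 72.2 and 71.1 in Dox (−1.69 ± 0.07). These 3 genes fell in every drug-treated library, with no overlap.

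The other 3 ATPase genes rose. Psmc3 was at 168, 159 and 160 CPM in Control and 319, 330 and 321 in Dox (log2 fold change 0.99 ± 0.06, edgeR adjusted p = 2.4e-13). Psmc4 was at 134, 116 and 110 CPM in Control and 227, 236 and 221 in Dox (0.93 ± 0.07). Psmc5 was at 192, 182 and 158 CPM in Control and 292, 324 and 303 in Dox (0.79 ± 0.07). Again no library overlapped. After the Hif1a siRNA the same split was measured, at −0.92 ± 0.08 for Psmc1, −1.35 ± 0.09 for Psmc2, −1.23 ± 0.07 for Psmc6, 1.22 ± 0.06 for Psmc3, 0.96 ± 0.07 for Psmc4 and 0.99 ± 0.07 for Psmc5.

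The summed ATPase level did not show this split, at 1110 ± 48 CPM in Control and 1075 ± 37 in Dox. Per kilobase of exon, the summed level of Psmc3, Psmc4 and Psmc5 was 0.83 ± 0.05 times that of Psmc1, Psmc2 and Psmc6 in Control, 0.69 ± 0.02 in NC_siRNA and 0.79 ± 0.003 in Hif1a_siRNA. It was 4.56 ± 0.04 times in Dox and 3.56 ± 0.37 in Hif1a_siRNA_Dox. The highest ATPase gene exceeded the lowest 2.21 ± 0.09-fold per kilobase in Control and 9.05 ± 0.40-fold in Dox. These ratios and levels are descriptions, chosen after the direction of the 6 genes was known, and carry no test.

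**Figure D3:**
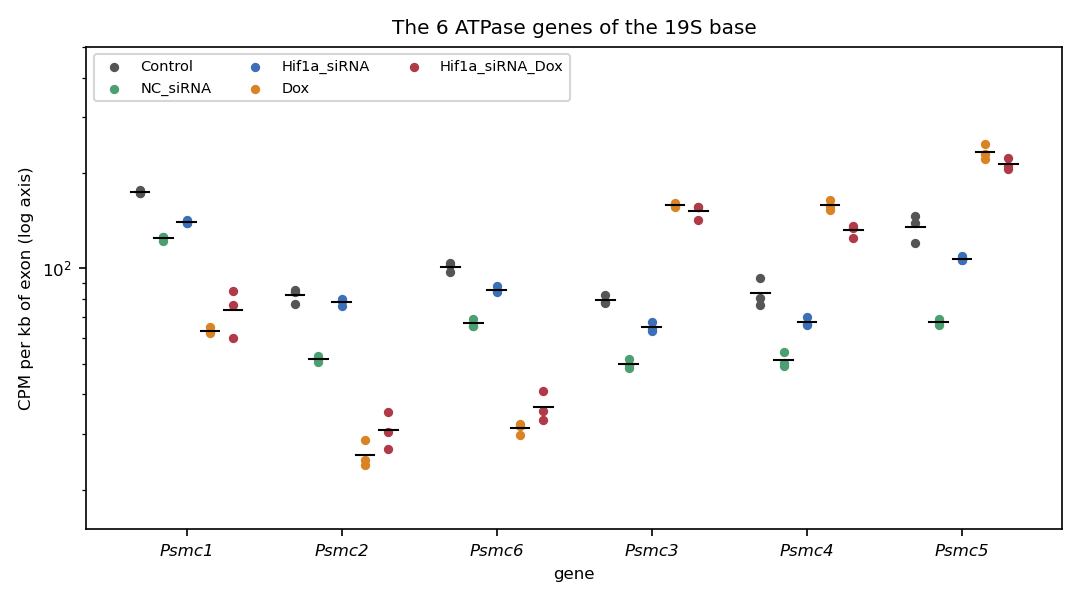
CPM per kilobase of exon (log axis) of the 6 ATPase genes in each library, coloured by group, with bars at the group means. Psmc1, Psmc2 and Psmc6 drop in both drug groups while Psmc3, Psmc4 and Psmc5 climb above all libraries without the drug.

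Stretches of RefSeq promoter sequence (GRCm38.p6) just before the start site are shown for these ATPase genes because members of the same ring moved apart. All are written 5′ to 3′ on the gene's own strand, and capitals mark CCGGAAG or its reverse complement CTTCCGG, the core of a site for ETS factors. Psmc1, Psmc2 and Psmc6, which fell, hold it at chr12:100110092-100110201, chr5:21785165-21785274 and chr14:45329714-45329823, all on the plus strand. Psmc4 (chr7:28050093-28050202, minus strand) and Psmc5 (chr11:106256075-106256184, plus strand), which rose, do not hold it in these windows, and Psmc3, which also rose, has no promoter entry and is not shown. Psme4 (chr11:30771665-30771774, plus strand), the cap gene that fell furthest with the drug, holds it as well. Psmd2, which rose, also holds it and is not shown.
Psmc1: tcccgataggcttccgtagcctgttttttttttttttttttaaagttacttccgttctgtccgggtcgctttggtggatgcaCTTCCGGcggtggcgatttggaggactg
Psmc2: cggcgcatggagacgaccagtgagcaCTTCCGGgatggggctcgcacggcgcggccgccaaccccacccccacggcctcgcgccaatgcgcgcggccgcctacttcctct
Psmc6: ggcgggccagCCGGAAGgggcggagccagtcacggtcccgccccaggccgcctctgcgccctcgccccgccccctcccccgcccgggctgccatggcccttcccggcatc
Psmc4: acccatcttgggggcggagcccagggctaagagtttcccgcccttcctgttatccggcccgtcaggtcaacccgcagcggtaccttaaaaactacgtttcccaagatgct
Psmc5: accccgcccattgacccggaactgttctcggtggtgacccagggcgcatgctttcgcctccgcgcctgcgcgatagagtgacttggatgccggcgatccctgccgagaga
Psme4: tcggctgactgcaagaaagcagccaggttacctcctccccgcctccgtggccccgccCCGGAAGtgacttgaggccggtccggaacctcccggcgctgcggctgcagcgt

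Promoter entries were given for 38 of the 46 members, and the 250 bases before each start were searched on both strands for 10 motifs, after the expression results were known. CCGGAAG was in 12 of 38 members (31.6%), against 7.83% of all genes in the table and 16.6% of the tested genes. Of those 12 members 11 fell with doxorubicin and Psmd2 rose, where 28 of all 45 tested members fell. The 45 include members without a promoter entry, which could not be searched. After the Hif1a siRNA the counts of the 12 were the same, where 26 of all 45 fell. Over all tested genes the motif went with no such difference: 41.8% of genes with it fell with the drug and 40.1% of genes without it. The CCAAT box was in 13 of 38 members (34.2%), against 37.5% of all genes in the table and 41.6% of the tested genes. Of those 13 members 10 fell with doxorubicin and 3 rose. The hypoxia response core ACGTG was in 9 (23.7%), above the 18.5% of all genes and below the 25.9% of the tested genes. Of those 9 members 4 fell with doxorubicin and 3 rose. The E-box CACGTG, which contains ACGTG, was in 5 members (13.2%), against 6.86% of all genes and 10.2% of the tested genes. Of these 5, Psma4, Psmb10 and Psme3ip1 rose with doxorubicin, and Psmd9 and Psme3 fell. The GC box GGGGCGGGG was in 5 members (13.2%), against 11.8% of all genes and 23.3% of the tested genes. Here 4 members fell with doxorubicin and 1 rose. The interferon response element core TTCNNTTTC was in 3 members (7.89%), against 8.18% of all and 6.84% of tested genes, and the start of the ZNF143 motif, ACTACANNT, in 3 (7.89%), against 4.29% and 6.28%. For each of these motifs 2 members fell with doxorubicin and 1 rose. The NRF-1 core GCGCATGCG was in 1 member (2.63%), which fell with doxorubicin, against 1.64% of all and 3.63% of tested genes. The E2F motif TTTGGCGC was in 0, against 0.485% and 0.963%.

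The antioxidant response core TGACNNNGC, to which the product of Nfe2l1 binds with a small Maf partner, was in 5 members, Psmb5, Psmb6, Psmc6, Psmd9 and Psmd12 (13.2%), against 11.5% of all genes and 13.8% of the tested genes. It is shown in capitals for the catalytic gene Psmb5 (chr14:54617996-54618055, minus strand), where it lies 47 bases before the start.
Psmb5: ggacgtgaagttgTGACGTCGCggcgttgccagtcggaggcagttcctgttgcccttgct
Of these 5 genes 4 fell with doxorubicin and Psmb5 did not pass the test (71.9, 67.8 and 70.4 CPM in Control, 60.7, 71.5 and 62.4 in Dox). Over all tested genes 41.5% of those with the motif fell with the drug and 40.1% of those without it. A match in letters is a description and does not show that a factor binds there.

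In the core particle 11 of 15 genes fell with the drug, 3 rose and Psmb5 (−0.11 ± 0.08) did not pass the test, although it passed with DESeq2 (−0.18), in the fit of the compared groups alone (−0.22) and without replicate 2 of Dox. Alpha subunit Psma2 fell most (log2 fold change −1.22 ± 0.07), from 182, 190 and 179 CPM in Control to 75.9, 86.8 and 73.8 in Dox. Psmb1, a beta subunit without a catalytic site, also fell (−1.03 ± 0.06), as did Psmb7 (−0.50 ± 0.06) and Psmb6 (−0.36 ± 0.06). Against this direction, Psmb3 rose from 129, 123 and 121 CPM to 207, 208 and 226 (0.78 ± 0.07, edgeR adjusted p = 9.5e-11) and Psma4 from 89.7, 90.4 and 90.4 to 135, 128 and 139 (0.57 ± 0.07). Their groups did not overlap. Over the 14 constitutive core genes, whose products are needed in equal number, the coefficient of variation of the level per kilobase was 32.7 ± 0.31% in Hif1a_siRNA, 38.2 ± 0.43% in Control and 40.0 ± 0.97% in NC_siRNA, and with the drug 66.2 ± 2.9% in Dox and 79.3 ± 1.7% in Hif1a_siRNA_Dox. The highest core gene exceeded the lowest 3.21 ± 0.18-fold in Control, 10.4 ± 1.3-fold in Dox and 14.8 ± 0.15-fold in Hif1a_siRNA_Dox. After the Hif1a siRNA the drug effect was −0.78 ± 0.06 for Psmb7 and −0.23 ± 0.06 for Psmb6, while Psmb5 (0.13 ± 0.08) did not pass the test. With upper-quartile scaling Psmb6 lost its call and Psmb5 passed (0.28).

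Psmb10, the catalytic subunit that replaces the product of Psmb7 in the immunoproteasome, showed the largest increase of the set. It was at 1.37, 1.23 and 2.08 CPM in Control, 1.69, 1.58 and 1.41 in NC_siRNA, 1.71, 1.81 and 2.34 in Hif1a_siRNA. With the drug it was at 14.8, 13.3 and 16.2 CPM in Dox and 14.6, 12.9 and 11.8 in Hif1a_siRNA_Dox. All 6 drug-treated libraries lay far above the 9 others. The log2 fold change was 3.24 ± 0.19 without the siRNA (edgeR adjusted p = 1.9e-13) and 2.74 ± 0.18 after it (edgeR adjusted p = 1.2e-12). It remained the lesser of the pair: per kilobase, Psmb10 made up 0.58 ± 0.17% of the sum of Psmb7 and Psmb10 in Control, 7.27 ± 0.86% in Dox and 12.0 ± 1.3% in Hif1a_siRNA_Dox. The summed melanocyte and fibroblast markers were also higher in the drug groups, and their part in this increase was not tested. The leukocyte markers were not listed in any group, and the rule for listing a gene is not given in the sources used here.

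The activator genes also parted. Psme2 rose from 28.1, 29.5 and 26.7 CPM in Control to 85.6, 89.0 and 86.6 in Dox (log2 fold change 1.63 ± 0.08, edgeR adjusted p = 2.5e-15), and its partner Psme1 from 42.8, 41.5 and 43.4 to 80.8, 84.3 and 78.8 (0.93 ± 0.07, edgeR adjusted p = 1.5e-11). Psme3, which makes the nuclear form of the same kind of cap, fell from 194, 188 and 179 CPM to 92.8, 81.9 and 88.2 (−1.09 ± 0.07). None of these groups overlapped. The ratio of Psme1 and Psme2 to Psme3 per kilobase was 0.96 ± 0.03 in Control, 0.57 ± 0.02 in Hif1a_siRNA, 4.95 ± 0.43 in Dox and 5.06 ± 0.24 in Hif1a_siRNA_Dox. Psme3ip1 rose from 32.9, 31.2 and 32.8 CPM to 170, 189 and 188 (2.50 ± 0.08, edgeR adjusted p = 3.1e-18), opposite to the gene whose product it binds. Psme4 fell furthest of all members, from 295, 301 and 289 CPM to 72.3, 73.7 and 66.0 (−2.06 ± 0.06, edgeR adjusted p = 6.7e-19), although its reads may in part come from the overlapping Erlec1. After the Hif1a siRNA the changes were 2.08 ± 0.08 for Psme2, 1.60 ± 0.07 for Psme1, −1.29 ± 0.07 for Psme3, 1.62 ± 0.08 for Psme3ip1 and −1.47 ± 0.06 for Psme4.

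**Figure D4:**
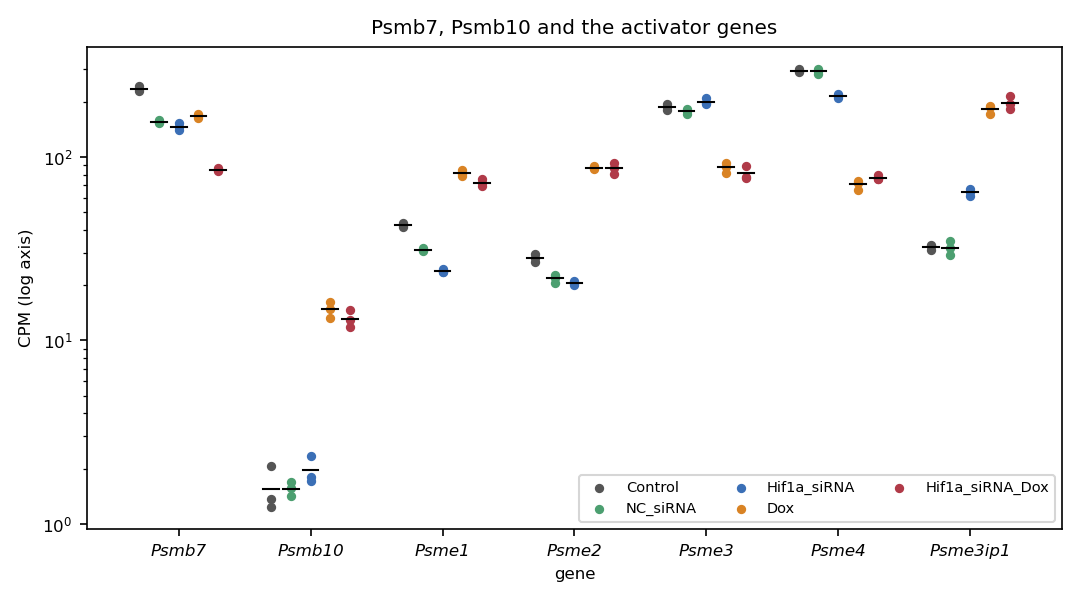
CPM (log axis) of the catalytic pair Psmb7 and Psmb10 and of the 5 activator genes in each library, coloured by group, with bars at the group means. Psmb10, Psme1, Psme2 and Psme3ip1 are highest in the 6 drug-treated libraries, Psme3 and Psme4 lowest in them, and Psmb7 lowest in Hif1a_siRNA_Dox.

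Of the 14 non-ATPase genes 9 fell with the drug, 3 rose and 2 (Psmd3 and Psmd13) did not pass the test. Psmd11, a lid subunit that clamps the lid to the core, fell from 211, 212 and 203 CPM to 66.4, 66.4 and 63.8 (log2 fold change −1.67 ± 0.06, edgeR adjusted p = 1.5e-17). The base scaffold gene Psmd1 fell from 260, 261 and 251 CPM to 79.6, 91.1 and 76.5 (−1.65 ± 0.08), and the lid gene Psmd6 from 24.5, 24.4 and 25.3 to 7.71, 10.8 and 7.27 (−1.53 ± 0.14). Psmd14, the lid's deubiquitinase, fell (−1.11 ± 0.07), as did Psmd8 (−1.07 ± 0.06) and the ubiquitin receptor gene Psmd4 (−0.96 ± 0.07). The other scaffold gene, Psmd2, rose from 626, 623 and 607 CPM to 957, 907 and 996 (0.62 ± 0.06, edgeR adjusted p = 2.8e-09). No library of Psmd1 or Psmd2 overlapped, so the 2 scaffold genes moved apart. Psmd7, whose product pairs with that of Psmd14, rose by 0.26 ± 0.08, and Psmd10, a base chaperone, by 0.31 ± 0.13 with overlapping libraries. Psmf1, which encodes an inhibitor of the core particle, rose by 0.63 ± 0.09. Of the assembly genes, Psmg1 (−0.64 ± 0.14), Psmg2 (−0.74 ± 0.15) and Psmg4 (−0.85 ± 0.22) fell, and Psmg3 (0.32 ± 0.13, edgeR adjusted p = 0.029) rose, a call lost with RLE scaling (adjusted p = 0.083), DESeq2, in the fits of the compared groups alone or without mitochondrial genes, and without replicate 1 or 2 of Control, replicate 2 of NC_siRNA or Dox, or any one library of Hif1a_siRNA.

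The direction of the change with doxorubicin went with the length of the gene. Of all tested genes, not split by span, 43.9% rose and 39.8% fell. Ordered by genomic span, 9 of the 15 shortest members (2535 to 8287 bases) rose and 5 fell. In the middle group (8391 to 18513 bases) 3 of 15 rose and 10 fell. Among the 15 longest (18879 to 109376 bases) 2 rose and 13 fell. The 2 exceptions at the long end were Psme3ip1 and Psmf1. Across the 45 members, the log2 fold change and the log of the span had a Pearson r of −0.50 and a Spearman rho of −0.51, and −0.53 and −0.47 after the Hif1a siRNA. Over 11147 protein-coding genes rho was −0.14 and −0.23. These are correlations across genes, which share libraries and are not independent replicates, so no p is given. Within the ATPase genes the 3 that rose span 5423 to 8391 bases and the 3 that fell 13163 to 19252 bases. In the knockdown without the drug rho was 0.11 and in transfection 0.06 over the same members.

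**Figure D5:**
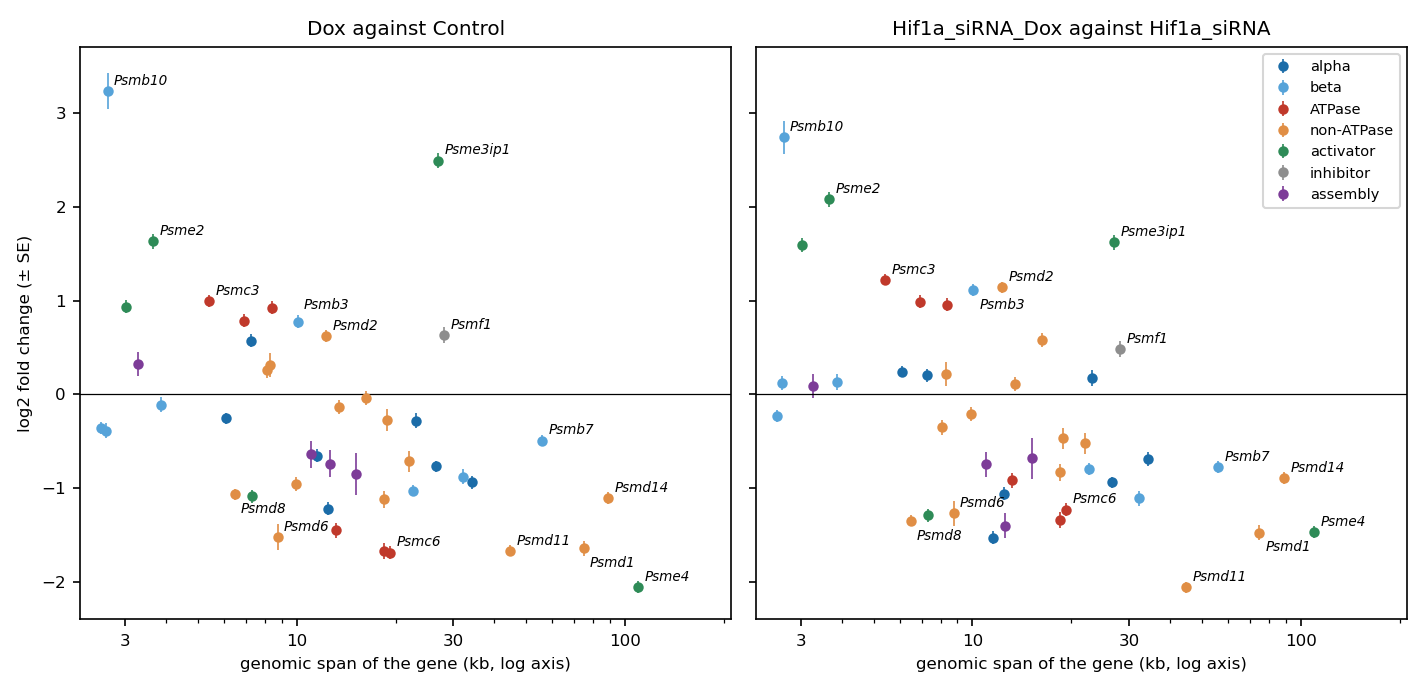
Log2 fold change with doxorubicin (± SE) of each tested member against the genomic span of its gene (kilobases, log axis), without the siRNA on the left and after the Hif1a siRNA on the right. Genes above zero lie mainly at short spans and the longest genes, Psme4, Psmd14 and Psmd1, lie below zero in both panels.

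Under doxorubicin, cells that had received the Hif1a siRNA had more members lower than higher when compared with cells given the drug alone. In Hif1a_siRNA_Dox against Dox, 13 of 45 members were lower and 7 higher, where 20.8% of all genes were lower and 21.5% higher. The median was −0.05 beside 0.01 for all genes. With RLE scaling the split was 9 lower and 8 higher, and with upper-quartile scaling 15 lower and 3 higher. Since Dox received no siRNA, the knockdown and the transfection cannot be told apart here.

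Psma1, an alpha subunit, was lower by the most, at 85.5, 89.3 and 86.5 CPM in Dox and 37.4, 41.0 and 34.8 in Hif1a_siRNA_Dox (log2 fold change −1.20 ± 0.07, edgeR adjusted p = 6.0e-12). Psmd8 was at 540, 543 and 572 CPM in Dox and 273, 290 and 258 in Hif1a_siRNA_Dox (−1.01 ± 0.06, edgeR adjusted p = 8.2e-12). Psmb7 was at 166, 172 and 162 CPM in Dox and 84.1, 84.8 and 86.8 in Hif1a_siRNA_Dox (−0.97 ± 0.06, edgeR adjusted p = 2.3e-11). For all 3 genes the combined group held the lowest libraries of the 5 groups. Without the drug, the same genes showed −0.04 ± 0.07, 0.11 ± 0.06 and −0.09 ± 0.06 in Hif1a_siRNA against NC_siRNA and did not pass the test. Both of those groups received an siRNA, whereas Dox received none. Against Control, which also received none, the Hif1a_siRNA means were lower, a comparison that was not tested. They were 109 against 137 CPM for Psma1, 699 against 1158 for Psmd8 and 146 against 235 for Psmb7.

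Psma2 (−0.50 ± 0.07), Psmb2 (−0.44 ± 0.08), Psma3 (−0.34 ± 0.06) and Psmd11 (−0.28 ± 0.06) were lower as well, so that 8 of 15 core genes were lower and the other 7 did not pass the test. Psmb6 (−0.20 ± 0.06, edgeR adjusted p = 0.016) and Psmd10 (−0.35 ± 0.13, edgeR adjusted p = 0.029) were lower but lost the call with RLE scaling and in the fit of the compared groups alone, Psmb6 also without replicate 2 of Dox and Psmd10 without replicate 3 of Dox or 1 of Hif1a_siRNA_Dox, and Psmd2 (−0.26 ± 0.06) and Psmc4 (−0.27 ± 0.07) kept it among the regulatory genes that were lower. Psmb5, Psmb10 and all 5 activator genes did not pass the test, with values between −0.17 and 0.12, although Psme1 passed with upper-quartile scaling (−0.21), the 1 CPM filter, without mitochondrial genes and without replicate 1 of Control, 2 of NC_siRNA or 1 of Hif1a_siRNA_Dox, Psme3 without replicate 2 of Hif1a_siRNA_Dox, and Psme4 with RLE scaling or DESeq2 (0.17 in both). Assembly gene Psmg2 was higher (0.56 ± 0.15, edgeR adjusted p = 0.0036), at 6.79, 5.63 and 5.06 CPM in Dox and 7.01, 9.91 and 8.88 in Hif1a_siRNA_Dox. The remaining increases were Psmd6 (0.48 ± 0.14), Psmg1 (0.38 ± 0.14), Psmd5 (0.29 ± 0.11), Psmc2 (0.25 ± 0.09), Psmc1 (0.22 ± 0.08) and Psmc6 (0.22 ± 0.07). These increases rested on single libraries. Without replicate 2 of Hif1a_siRNA_Dox, whose mitochondrial share was 3.90% against 4.88% and 5.07% in its group, only Psmg2 was higher, 15 members were lower and the median was −0.14. Without replicate 1 or 3 of Dox the members higher numbered 2 and 3, without replicate 1 or 3 of Hif1a_siRNA 4, and in a fit of the compared groups alone 1. Psmd5 also lost its call without replicate 2 of NC_siRNA or Dox, or replicate 2 of Hif1a_siRNA.

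Whether doxorubicin acted differently after the Hif1a siRNA was tested as the difference of the 2 drug effects. That difference was positive for 17 members and negative for 8, where 26.3% and 32.3% of all genes were called in those directions. The median difference was 0.19, beside −0.06 for all genes. Transfection may enter it, since Control and Dox received no siRNA. Psma1 had the most negative difference (−0.88 ± 0.10, edgeR adjusted p = 6.5e-08), with −0.66 ± 0.07 without the siRNA and −1.53 ± 0.07 after it. Psmd4 had the most positive (0.75 ± 0.11, edgeR adjusted p = 2.2e-06), with −0.96 ± 0.07 for the drug alone and −0.21 ± 0.07 following the siRNA. In its case the drug groups were level (163 ± 4.5 CPM in Dox and 164 ± 24 in Hif1a_siRNA_Dox), and the groups without the drug were not (317 ± 8.2 in Control and 190 ± 4.2 in Hif1a_siRNA). Of the 6 ATPase genes 4 had a positive difference, Psmc1 (0.53 ± 0.12), Psmc6 (0.46 ± 0.10), Psmc2 (0.33 ± 0.12) and Psmc3 (0.23 ± 0.08). Psmb10 (−0.49 ± 0.27) did not pass the test, except without replicate 3 of Control (−0.76, edgeR adjusted p = 0.024). Neither did Psmb5 (0.24 ± 0.11), Psmb6 (0.14 ± 0.09) or Psme3 (−0.20 ± 0.10). Psmb5 passed with RLE or upper-quartile scaling, with DESeq2 and without replicate 2 of Dox, and Psmb6 with DESeq2. Psme3 passed without replicate 2 of Dox or of Hif1a_siRNA_Dox.

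Genes that work with the proteasome but fall outside the name rule were read from lists. Of 11 assembly and bound factors, 7 fell and 2 rose with doxorubicin, beside 39.8% and 43.9% of all genes. Pomp, which matures the core particle, rose from 103 ± 1.8 to 258 ± 0.51 CPM (log2 fold change 1.32 ± 0.06). Akirin2, which carries proteasomes into the nucleus, fell from 83.9 to 5.90 CPM (−3.83 ± 0.15), as did Zfand5, a proteasome activator (−2.37 ± 0.11), and Usp14, a deubiquitinase held by Psmd2 (−1.61 ± 0.07). In the knockdown without the drug 6 rose and 3 fell, beside 36.4% and 31.2% of all genes, with Uchl5, another bound deubiquitinase, rising most (1.34 ± 0.09) and Pomp falling (−0.50 ± 0.06).

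Of 15 genes of proteasome gene transcription and its control, 8 rose and 2 fell with transfection, beside 33.1% and 33.7% of all genes. Nfe2l1 itself rose from 500 CPM in Control to 923 in NC_siRNA (0.88 ± 0.09), while the proteasome genes fell, and was at 609 CPM in Hif1a_siRNA (−0.60 ± 0.09 against NC_siRNA). With doxorubicin 5 of the 15 rose and 7 fell, near the 43.9% and 39.8% of all genes. Nfe2l1 then did not pass the test (0.18 ± 0.09, edgeR adjusted p = 0.064), and Ddi2, the protease that activates its product, fell from 13.0 to 2.67 CPM (−2.28 ± 0.23).

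Of 6 ubiquitin and E1 enzyme genes, 3 rose and 3 fell with doxorubicin, near the 43.9% and 39.8% of all genes, with Ubb among those that fell (−0.91 ± 0.07). Of 13 shuttle and p97 genes 10 fell and 2 rose, beside the same shares of all genes. The shuttle genes Rad23b (675 to 49.0 CPM, −3.78 ± 0.07) and Sqstm1 (1389 to 166 CPM, −3.06 ± 0.09) fell furthest, and Ubqln4 rose (2.66 ± 0.07). Of 12 listed peptide loading and interferon response genes 10 rose with doxorubicin, beside 43.9% of all genes, with a median of 1.16 beside 0.10. Irf2 (−0.23 ± 0.12) did not pass the test. Tap1, which carries proteasome-made peptides into the endoplasmic reticulum, rose from 0.98 to 17.4 CPM (4.14 ± 0.23), H2-D1 by 1.42 ± 0.07 and B2m by 1.14 ± 0.08.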

How the data were processed

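RNA-seq libraries of 15 samples came from the TruSeq Stranded mRNA kit, per the labels' protocols. What the authors deposited are unnormalized counts of reads for each gene. Their tools, per the submitters' processing notes, were StringTie 2.1.3b, Bowtie2 2.3.4.1, HISAT2 2.1.0, Trimmomatic 0.38 and FastQC 0.11.7, on mm10. The strand setting of the counting is not given in the sources used here. Genes are listed per group (13172 for Control, 12819 to 13080 for the others). The 12721 listed for all 5 groups were fitted together, and 451 were left out. Blank symbols were filled by gene ID from RefSeq for 1491 genes, and gene IDs repeated within a table (24 to 28 per table outside Control) were kept once.

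From the counts, edgeR 4.0.16 in R 4.3.3 was fitted with TMM scaling, a group term, robust quasi-likelihood dispersions and 10 residual degrees of freedom. Its filter on low counts removed 0 genes. Tests were two-sided, adjusted by Benjamini-Hochberg over all genes in each of 6 comparisons at 0.05, and SE is the log2 fold change divided by the root of F. Libraries within a group differed by more than sampling noise (chi-square per degree of freedom 3.58 to 34.8). Promoter motifs were searched after the results were known. Exon lengths were the union of a gene's exons in the GENCODE basic annotation. Gene spans and promoters came from RefSeq GRCm38.p6. Library totals were 23825110 to 28734303 reads, and precision falls with a gene's count. The procedure was tested on simulated data. The members and lists were chosen with earlier results of these data known.

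Named in every comparison were the catalytic and activator genes. Added were the 6 largest increases and decreases among called members whose higher group mean reached 5 CPM, and members against their class where 5 or fewer were. Other genes named as examples were chosen after their values were seen. Alternatives were RLE and upper-quartile scaling, DESeq2 1.42.0, a replicate block, no filter, 1 CPM in 3 libraries as the filter, the compared groups fitted alone, a fit without mitochondrial genes, and leaving out each library in turn. Results for some listed genes are not reported here.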

Additional observations from a re-analysis of the deposited data

Results flagged for a closer look

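For 15 members the effect of doxorubicin after the Hif1a siRNA differed from its effect without it, by the edgeR test of that difference among the genes the naming rule gives. Over all 45 tested members the difference was positive for 17 and negative for 8, beside 26.3% and 32.3% of all genes. The rule names all of the negative ones but not all of the positive ones. Each difference also depends on the levels without the drug, and transfection may enter it, since Control and Dox received no siRNA. Values are log2 differences, after minus without, with SE and the edgeR adjusted p.

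A positive difference was found for Psmd4 (0.75 ± 0.11, adjusted p = 2.2e-06), Psme1 (0.66 ± 0.10, adjusted p = 5.7e-06), Psmd13 (0.62 ± 0.11, adjusted p = 3.8e-05), Psme4 (0.59 ± 0.09, adjusted p = 3.9e-06), Psmc1 (0.53 ± 0.12, adjusted p = 0.00042), Psmd2 (0.52 ± 0.09, adjusted p = 3.2e-05) and Psme2 (0.45 ± 0.11, adjusted p = 0.0011). Psme1, Psme2 and Psmd2 rose with the drug in both settings, and more after the siRNA. Their means with the drug were not higher after it. They were 81.3 CPM in Dox and 72.3 in Hif1a_siRNA_Dox for Psme1, 87.1 and 86.6 for Psme2, and 953 and 798 for Psmd2. Without the drug, Control and Hif1a_siRNA held 42.6 and 23.9 CPM for Psme1, 28.1 and 20.5 for Psme2, and 619 and 362 for Psmd2. Psme4 and Psmc1 fell in both settings, and less after the siRNA. Psmd13, a lid subunit, rose only after the siRNA (0.58), with −0.04 and no call without it. Its mean was 92.0 CPM in Hif1a_siRNA and 138 in Hif1a_siRNA_Dox, against 131 in Control and 127 in Dox.

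A negative difference was found for Psma1 (−0.88 ± 0.10, adjusted p = 6.5e-08), Psme3ip1 (−0.87 ± 0.11, adjusted p = 5.4e-07), Psmg2 (−0.66 ± 0.20, adjusted p = 0.0066), Psmd7 (−0.61 ± 0.11, adjusted p = 6.2e-05), Psmd11 (−0.39 ± 0.08, adjusted p = 0.00037), Psma4 (−0.37 ± 0.09, adjusted p = 0.0018), Psmd8 (−0.28 ± 0.08, adjusted p = 0.0061) and Psmb7 (−0.28 ± 0.08, adjusted p = 0.0068). Psma1, Psmg2, Psmd11, Psmd8 and Psmb7 fell in both settings, and more after the siRNA. Psma4 rose in both settings, less after the siRNA (0.57 and 0.20), a call that was lost after the siRNA without replicate 2 of NC_siRNA or of Hif1a_siRNA_Dox or any one library of Hif1a_siRNA. Psme3ip1 rose in both settings, and less after the siRNA. Psmd7 rose without the siRNA (0.26) and fell after it (−0.35). Psmd8 and Psmb7 lost the call with RLE scaling (−0.20 for each, adjusted p = 0.0554 and 0.0537).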

How the results depend on the processing

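Over the 18 counts and medians of the 6 comparisons, RLE scaling, DESeq2, both filters, the replicate block and the fit without mitochondrial genes kept every count within 1.5 times and every median within the spread. No value changed sign among called results. Upper-quartile scaling gave a median of −0.37 for doxorubicin and −0.60 for transfection, and 3 members higher in the knockdown with doxorubicin; it moved the median of all genes by 0.13 with doxorubicin and 0.15 with doxorubicin after knockdown. The fit of the compared groups alone gave 10 members lower in the knockdown, a doxorubicin median of −0.60 and 1 member higher in the knockdown with doxorubicin. Leaving out 1 library at a time gave 2 to 4 members lower in the knockdown, 1 to 9 higher in the knockdown with doxorubicin, and medians of −0.14 to −0.019 there and −0.70 to −0.36 for doxorubicin after knockdown. With the replicate block 26 members rose and 3 fell in the knockdown, and 28 fell and 14 rose with doxorubicin. Of 30 library pairs with the same number, the deviations from the group means correlated by −0.16 to 0.09, 0 above 0.1, and 4 of 15 libraries were nearest to their own number, so the numbers were not taken to pair samples.

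Of 109 named gene results, the replicate block lost 1 call (Psma7 in the knockdown), RLE scaling lost 6 and gained 2, upper-quartile scaling lost 5 and gained 3, and DESeq2 lost 2 and gained 5. The fit without mitochondrial genes lost 1 and gained 1, and the fit of the compared groups alone lost 8 and gained 2. Over all fits that left out 1 library, 54 calls were lost and 9 gained. Psmb10 had under 3 CPM without the drug, and genes of this depth have the widest errors. The number of libraries limits the precision.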
